A study of Mus musculus with 160 samples.

Results

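The genes described here are 28 genes of cholesterol synthesis and of its control by the transcription factor SREBP2. They were chosen by name, as enzymes of the pathway, regulators of SREBP2 and well-known SREBP2 targets, from 56980 gene identifiers in the count table. Earlier results of these data were known when the set was chosen, so the results below are not independent of that choice. All 28 were found and had enough reads to be tested in each of the 5 tissues. In the order of their roles, 3 supply acetoacetyl-CoA and HMG-CoA (Acat2, Aacs, Hmgcs1) and 6 lead from mevalonate to isoprenoids (Mvk, Pmvk, Mvd, Idi1, Fdps, Ggps1). A further 3 make squalene and turn it into lanosterol (Fdft1, Sqle, Lss), and 10 turn lanosterol into cholesterol (Cyp51, Tm7sf2, Lbr, Msmo1, Nsdhl, Hsd17b7, Ebp, Sc5d, Dhcr7, Erg28). The remaining genes are 4 regulators (Srebf2, Scap, Insig1, Insig2) and 2 genes of sterol handling (Stard4, Tmem97).

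The study measured RNA in 160 libraries from 35 male mice. Mice of 4 inbred strains (A/J, C57BL/6J, SJL and DBA/2J) were fed chow until 12 weeks of age and then a Mediterranean, Vegetarian, Vegan or American diet for 6 weeks, so all were 18 weeks old at harvest. The 4 purified diets supplied equal energy and the same proportions of macronutrients, and differed in the foods these came from. Libraries were made from liver, subcutaneous fat, brown fat, visceral fat and skeletal muscle, 32 per tissue, with 2 mice in every one of 16 strain and diet groups. The 2 replicates of a combination are different mice, and the American diet served as the reference for the other 3 diets.

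Cholesterol is built from acetyl-CoA through HMG-CoA, mevalonate, isoprenoid diphosphates, squalene and lanosterol. SREBP2, encoded by Srebf2, waits in the membrane of the endoplasmic reticulum bound to its escort SCAP, and INSIG proteins hold the pair there when sterols are plentiful. When membrane sterol falls, SCAP carries SREBP2 to the Golgi, where proteases release the part that enters the nucleus and raises transcription of the pathway, including that of Insig1 and Srebf2 themselves. The liver is a main site of this synthesis in the body.

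The DNA just before the start sites of some members is shown first. They were chosen partly for the motifs they hold, as stated below. SREBP2 is known to bind sterol response elements together with the CCAAT-binding factor NF-Y. RefSeq promoters (GRCm38.p6) were matched by symbol for 24 of the 28 genes. Fdft1, Fdps, Sqle and Stard4 had no entry. Hmgcs1 is shown as the only member with the element TCACNCCAC. The other members shown were taken by smallest p in the C57BL/6J liver comparison below, among those with CCAAT. Scap and Erg28 were passed over because they lack CCAAT. The presence of CCAAT in those other sequences therefore follows from the choice and is no result. Each sequence runs 5′ to 3′ on the gene's strand, with the element TCACNCCAC and CCAAT in capitals (ATTGG is CCAAT on the opposite strand).
Hmgcs1, chr13:119690175-119690255, plus strand: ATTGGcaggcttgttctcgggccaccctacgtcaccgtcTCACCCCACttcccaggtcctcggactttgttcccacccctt
Hsd17b7, chr1:169969206-169969285, minus strand: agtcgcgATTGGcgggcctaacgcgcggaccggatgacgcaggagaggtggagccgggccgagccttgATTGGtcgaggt
Tm7sf2, chr19:6067856-6067935, minus strand: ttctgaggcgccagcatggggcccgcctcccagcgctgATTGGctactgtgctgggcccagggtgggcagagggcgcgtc
Mvk, chr5:114444189-114444268, plus strand: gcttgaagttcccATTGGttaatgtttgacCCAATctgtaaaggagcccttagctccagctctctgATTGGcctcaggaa
Msmo1, chr8:64733592-64733674, minus strand: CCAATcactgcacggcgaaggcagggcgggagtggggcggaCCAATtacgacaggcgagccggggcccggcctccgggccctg
Nsdhl, chrX:72918441-72918520, plus strand: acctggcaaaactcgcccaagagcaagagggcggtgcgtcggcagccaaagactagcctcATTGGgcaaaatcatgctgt

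In the 250 bases before the start, searched on both strands, CCAAT was found in 20 of the 24 promoters, against 33.8% of 32544 RefSeq promoters. The members without it were Aacs, Acat2, Erg28 and Scap. TCACNCCAC stood in 1 member, Hmgcs1, 137 bases before the start on the plus strand, against 1.04% of all promoters. The E-box CACGTG stood in 5 members (Dhcr7, Hsd17b7, Insig1, Sc5d and Scap), against 6.03% of all promoters. These are letter matches in a fixed window. TCACNCCAC and CCAAT do not overlap in the Hmgcs1 sequence shown, and CACGTG lies in none of the sequences shown.

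Library depth and purity touch the results below. Libraries held 17996919 to 28346960 counts in brown fat, 18611481 to 29861660 in liver, 20040934 to 30418107 in muscle, 18893997 to 38706418 in subcutaneous fat and 20527228 to 54796454 in visceral fat. Liver transcripts were found in some libraries of other tissues: the albumin gene Alb exceeded 10% of its liver mean in 4 of the brown fat, 8 of the muscle, 4 of the subcutaneous and 9 of the visceral fat libraries. A further subcutaneous library (A/J, Mediterranean, mouse 24) had a near-absent level of the depot marker Hoxc10, at 0.318 CPM (counts scaled to a common library total), and a visceral library (SJL, American, mouse 50) had no Wt1 reads and Hoxc10 at 16.2 CPM. These 27 libraries are called doubted here. Some results in those tissues are given with and without them, and others over all libraries only. Where no value without them is given, this does not mean that the result stayed the same. The libraries are from whole tissue, so fewer cells of a type and less RNA per cell cannot be told apart.

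Per transcript length, the pathway was most abundant in liver. The median of the 28 mean levels was 58.7 TPM (transcript abundance scaled to gene length and library total, the authors' values) in liver, 26.3 in visceral fat, 24.7 in subcutaneous fat, 15 in brown fat and 9.38 in muscle. Liver had the highest mean for 17 of the 28 genes, visceral fat for 6, subcutaneous fat for 3 and brown fat for 2. Muscle had the lowest mean for 20 genes.

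Single steps departed from that order. Sc5d, a sterol desaturase near the end of the pathway, led in liver at 202 ± 52 TPM (SD, n = 32) and stood at 29.8 ± 24.2 in muscle. Ebp, the sterol isomerase that acts just before it, was at 177 ± 26.7 in liver and 21.5 ± 8.02 in brown fat. The 2 distributions did not overlap for either gene between liver and brown fat. Hmgcs1, which makes HMG-CoA, was instead highest in visceral fat at 231 ± 111 TPM, with 195 ± 91.4 in subcutaneous fat, 155 ± 32.5 in brown fat and 126 ± 64.7 in liver, and these 4 ranges overlapped widely. Aacs, which activates the ketone body acetoacetate for lipid synthesis, was highest in brown fat at 211 ± 87.6 TPM and lowest in muscle at 11.9 ± 6.76.

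A pair of genes were lowest in liver. Ggps1, which makes the isoprenoid used to prenylate proteins rather than sterol, had 3.87 ± 0.98 TPM in liver and 21.5 ± 3.95 in subcutaneous fat, and the liver range ended below the lowest subcutaneous library. Lbr, a nuclear envelope protein that is also a sterol reductase, had 4.34 ± 1.01 TPM in liver and 32.1 ± 8.7 in subcutaneous fat, again without overlap. Tm7sf2, the other enzyme for the same reduction, ran the opposite way, at 60.9 ± 14.7 TPM in liver and 10.5 ± 8.29 in subcutaneous fat.

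**Figure D1:**
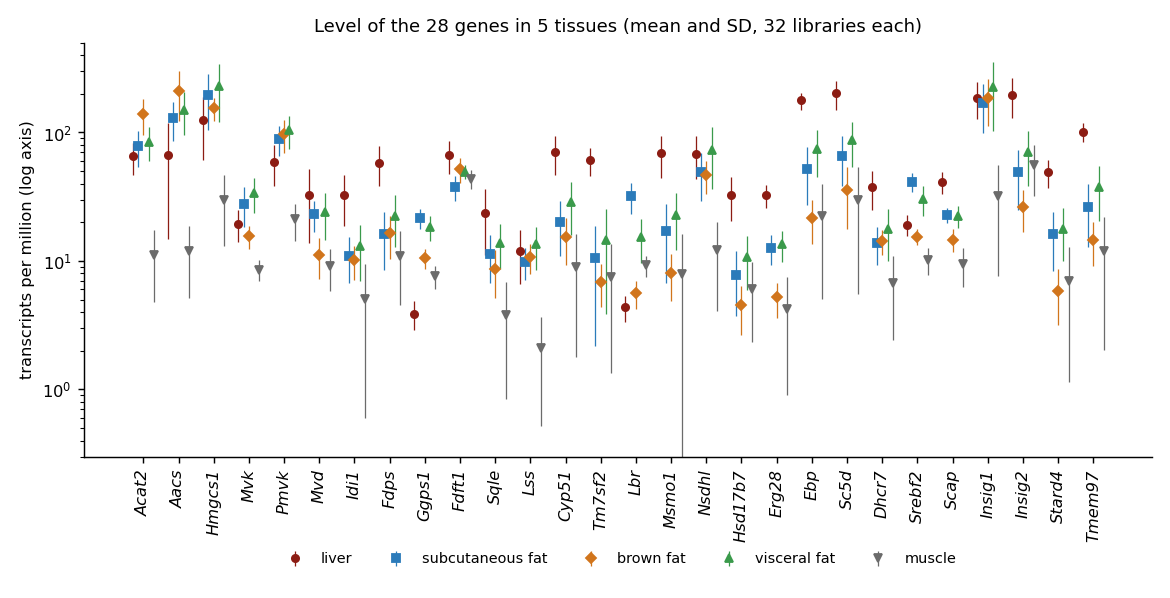
Level of each of the 28 genes (horizontal axis) in TPM on a log axis, as the mean and SD of 32 libraries for each of 5 tissues, which have different symbols and colours. Liver holds the highest mean for 17 genes, and Ggps1 and Lbr sit lowest in liver.

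In edgeR, each tissue against the mean of the other 4 called all 28 genes in liver, 26 higher and 2 lower, with a median log2 difference of 2.18. Of all genes, 85.3% were called in that comparison, with a median of -0.27. In muscle 24 were called lower and 3 higher, and 78.4% of all genes were called in either direction. Direction depended on the scale for some members. Between TMM-scaled counts and TPM it flipped for 3 genes in liver (Aacs, Pmvk, Srebf2), 3 in muscle (Fdft1, Insig2, Lbr), 1 in brown fat (Dhcr7), 15 in subcutaneous fat and 18 in visceral fat. For both white fat depots no direction is therefore given.

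C57BL/6J livers carried less mRNA for most of the pathway than livers of the other 3 strains. With 8 libraries against 24, edgeR (strain and diet as terms, Benjamini-Hochberg adjustment over 18636 genes) called 18 of the 28 lower and none higher, while 12.7% of all genes were called lower and 26.7% in either direction. The median log2 difference was -0.51 over the 28 genes, 25 of which were below 0, and -0.01 over all genes. By role, the calls covered 2 of 3 supply genes, 4 of 6 mevalonate genes, all 3 squalene genes, 7 of 10 lanosterol genes, 2 of 4 regulators and neither gene of sterol handling.

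The levels below are CPM after TMM scaling, which compares libraries for a gene and not genes with each other, and are given as the lowest, median and highest library. Hsd17b7, a ketosteroid reductase that acts after lanosterol demethylation, was at 35.7, 44.3 and 55.5 in C57BL/6J and 41.2, 77.7 and 122 in the other strains (log2 difference -0.83 ± 0.13 SE, edgeR adjusted p = 1.05e-05). Tm7sf2 was at 73.8, 80.3 and 98.2 against 83.6, 128 and 197 (-0.63 ± 0.11, adjusted p = 3.19e-05). Mvk, the first kinase on mevalonate, was at 12.5, 15.5 and 21.8 against 15.1, 23.6 and 38 (-0.61 ± 0.13, adjusted p = 0.000348). The ranges overlapped for all 3 genes, but each of the 8 C57BL/6J livers lay below the median of the other strains.

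Fdft1, squalene synthase, which commits the pathway to sterols, was at 74.6, 83.8 and 112 CPM in C57BL/6J and 81.7, 128 and 192 in the others (-0.59 ± 0.12, adjusted p = 0.00029). Erg28, a scaffold for the demethylation enzymes, was at 41.6, 45.4 and 62.1 against 46.2, 60 and 85.9 (-0.45 ± 0.09, adjusted p = 0.000394). For Fdft1 all 8 libraries lay below the other strains' median, and for Erg28 7 did, the exception being a Mediterranean-fed mouse. The largest fall was that of Mvd, which decarboxylates mevalonate diphosphate, with 9.35, 13.5 and 18.4 CPM against 10, 27.8 and 62.5 (-1.09 ± 0.26, adjusted p = 0.00181).

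Among the regulators, the escort Scap was at 94.7, 110 and 127 CPM in C57BL/6J livers and 97.8, 147 and 190 in the others (-0.36 ± 0.07, adjusted p = 0.000276). Srebf2 itself was at 46.4, 51.6 and 56.9 against 49.5, 60 and 85.3 (-0.27 ± 0.07, adjusted p = 0.00235). Insig1 and Insig2 did not pass the test. The other 10 genes called lower were Msmo1 and Nsdhl at -0.79, Sqle at -0.81, Pmvk at -0.69, Dhcr7 at -0.66, Lss at -0.65, Idi1 at -0.63, Hmgcs1 at -0.57, Acat2 at -0.54 and Cyp51 at -0.35. The 18 called genes ranged from -0.27 to -1.09 and were lower on all 4 diets in each case. For 14 of them every C57BL/6J liver lay below the median of the other strains. Both counts describe genes picked as lower in these same libraries, so they are no separate test. No share among all genes called lower is given.

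**Figure D2:**
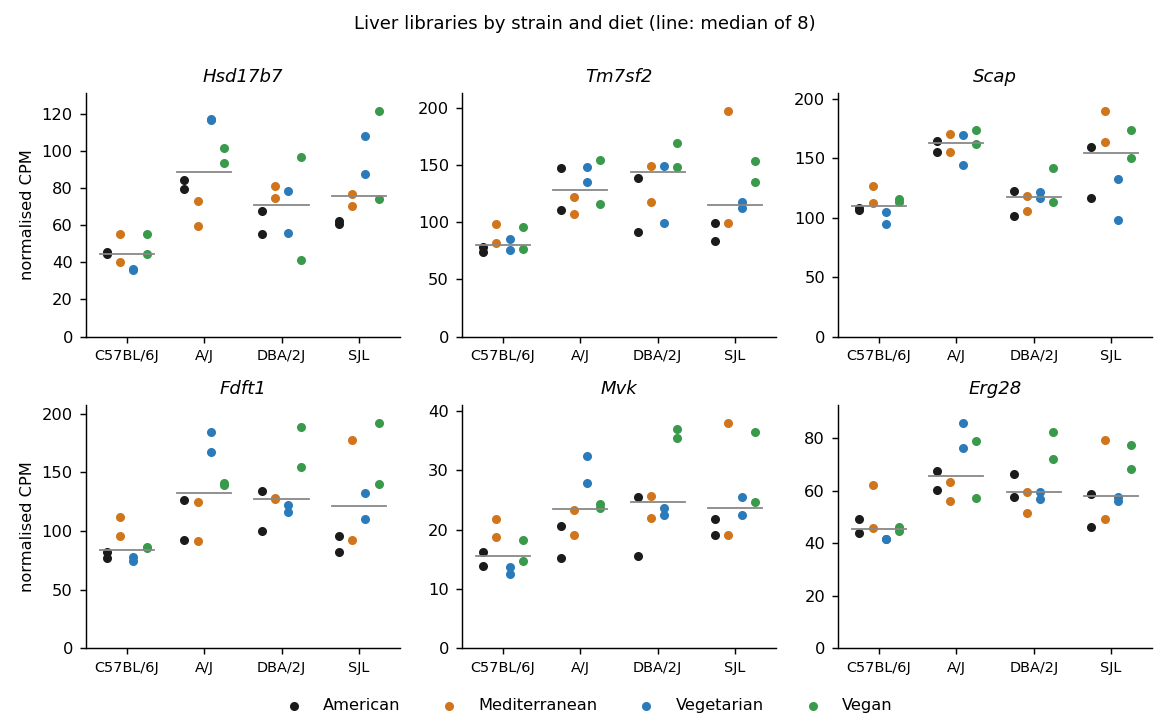
Normalised CPM (vertical axes, from 0) in each liver library by strain for 6 genes, coloured by diet, with a line at the median of the 8 libraries of a strain. The C57BL/6J points lie low in every panel and overlap with the lowest points of the other strains.

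The 10 members that did not pass included Stard4, a sterol transfer protein (log2 difference -0.27, adjusted p = 0.0516), and 3 genes with differences above 0, namely Ggps1 at 0.21, Sc5d at 0.13 and Tmem97 at 0.07. Against single strains, C57BL/6J was called lower for 18 members against A/J (14% of all genes), 13 against DBA/2J (13.7%) and 18 against SJL (13.3%). Reads of strains other than C57BL/6J were aligned with a relaxed mismatch penalty, so strain and alignment setting cannot be told apart in this contrast. In edgeR the same contrast called 3 members lower in subcutaneous fat (11.4% of all genes) and 4 in brown fat (12.8%). It called 0 lower in visceral fat (5.82%) and 0 in muscle (14.2%), where 10 members (25.7% of all genes) and 3 members (38.5%) had an unadjusted p under 0.05 in either direction and DESeq2 also called 0 lower. Without the doubted libraries 2 were called lower in visceral fat and 8 in muscle (8.3% and 36.6% of all genes in either direction). Beside the liver result, the summed level of 5 hepatocyte markers was 73610, 79210 and 130400 CPM in C57BL/6J against 76820, 111800 and 169900 in the other strains, with 2 of the 5 called lower, and 3 of 4 stellate and fibroblast markers were called higher. Their part in the result was not tested.

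The other strains had fewer calls in liver. In A/J, 8 members were called higher (14.7% of all genes) and none lower, led in size by Hmgcs1, at 196, 366 and 644 CPM against 107, 190 and 414 (0.89 ± 0.16, adjusted p = 6.68e-05), with Insig2 at 0.53, Hsd17b7 at 0.51 and Scap at 0.39. In DBA/2J, Mvd was called higher (0.62) and Scap (-0.23) and Hmgcs1 (-0.47) lower, which is 1 higher and 2 lower beside 14.6% and 11.5% of all genes. In SJL, 5 were called higher (16.5%) and Insig2 lower (-0.44, beside 13.6%). The largest was Aacs, at 82.4, 218 and 316 CPM against 19.3, 61.3 and 176 (1.46 ± 0.32, adjusted p = 0.000877), with all 8 SJL livers above the median of the other strains. The counts for DBA/2J and SJL moved with the settings, as given in the closing section.

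Other genes of sterol biology were read in the same C57BL/6J liver contrast, in which 12.7% of all genes were called lower. Of 15 tested genes of sterol efflux and transport, 2 were called lower and 1 higher. Scarb1, the receptor for high-density lipoprotein, was at 143, 164 and 211 CPM against 196, 247 and 361 (-0.60 ± 0.09, adjusted p = 2.45e-06), and Npc1, which exports cholesterol from lysosomes, differed by -0.39 ± 0.11 (adjusted p = 0.00822). Nceh1, a cholesteryl ester hydrolase, was higher by 0.54 ± 0.12 (adjusted p = 0.000717).

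Fatty acid synthesis, which is under the sister factor SREBP1, had 2 of 17 genes called lower in C57BL/6J liver and none higher, with a median of -0.06. One of these was the fatty acid elongase Elovl5, at 175, 293 and 606 CPM against 465, 662 and 1322 (-1.17 ± 0.19, adjusted p = 1.77e-05). The other, the desaturase Fads1, differed by -0.41 ± 0.13 (adjusted p = 0.0141). Bile acid synthesis had 2 of 11 called lower and a median of 0.01.

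**Figure D3:**
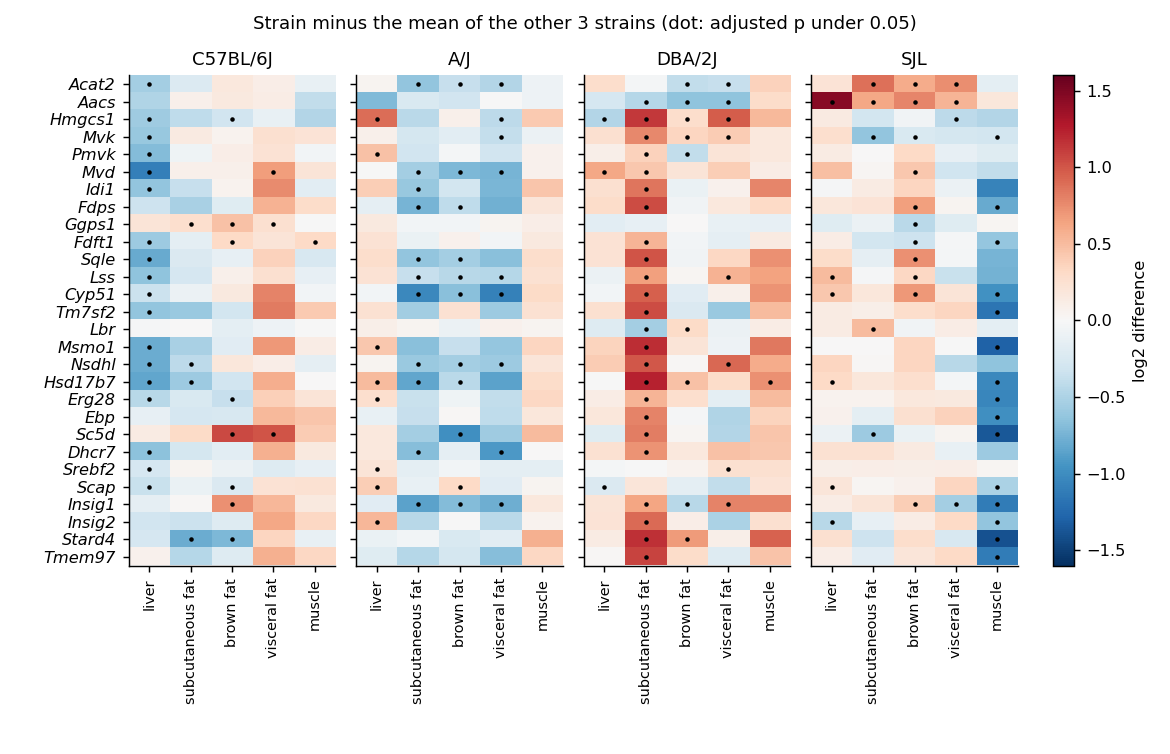
Log2 difference of each strain from the mean of the other 3 (colour scale) for the 28 genes (vertical axis) in 5 tissues (horizontal axis of each panel), with a dot where the edgeR adjusted p was under 0.05. Dots cover 18 genes in C57BL/6J liver, 24 in DBA/2J subcutaneous fat and 15 in SJL muscle.

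Diet contrasts in liver had few or no calls. No member passed on the Vegan diet against the American diet in edgeR, while 0.113% of all genes did. Of the 28, 13 had an unadjusted p under 0.05, against 12.5% of all genes, and DESeq2 called 2, beside 0.622% of all genes. The fitted difference was above 0 for 25 of the 28, with a median of 0.31, beside 51.2% and a median of 0.01 over all genes. By role the medians were 0.49 for the 3 squalene genes, 0.46 for the 6 mevalonate genes, 0.33 for the 3 supply genes, 0.31 for the 10 lanosterol genes, 0.19 for sterol handling and 0.12 for the regulators.

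The smallest p belonged to Cyp51, which demethylates lanosterol. Its level was 97.5, 151 and 241 CPM in the 8 Vegan-fed and 84.1, 95.7 and 138 in the 8 American-fed livers (0.65 ± 0.14, edgeR adjusted p = 0.0562, DESeq2 adjusted p = 0.0101). Of the Vegan-fed livers, 7 lay above the highest American-fed liver. Sqle, the oxygen-dependent epoxidase that is a known control point, was at 27.5, 75.7 and 123 against 26.9, 33.6 and 58.5 (0.97 ± 0.24, edgeR adjusted p = 0.086, DESeq2 adjusted p = 0.015). The ranges overlapped, with 5 of 8 Vegan-fed livers above all American-fed ones.

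Fdft1 followed at 85.3, 140 and 192 CPM against 77.3, 94 and 134 (0.48 ± 0.14, adjusted p = 0.148). Mvk was at 14.8, 24.5 and 36.9 against 13.9, 17.7 and 25.6 (0.50 ± 0.15, adjusted p = 0.164). Srebf2 was at 51.3, 64.1 and 85.3 against 46.4, 55.1 and 60.4 (0.26 ± 0.08, adjusted p = 0.195). In these 3 genes, 6, 3 and 4 of the Vegan-fed livers lay above the highest American-fed one. Tm7sf2 overlapped more, at 76.3, 142 and 169 against 73.8, 95.5 and 147 (0.34 ± 0.13, adjusted p = 0.288). The members with fitted values below 0 were Insig2 (-0.46), Ggps1 (-0.12) and Sc5d (-0.09).

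The Vegan difference was not spread evenly over strains in description. The median over the 28 genes was 0.69 in SJL (27 genes above 0), 0.42 in DBA/2J (24 genes), 0.11 in A/J (20 genes) and -0.01 in C57BL/6J (14 genes), from 2 mice per diet in each strain. The test of strain by diet over all 4 diets called no member in edgeR and 0% of all genes, with 9 members and 8.09% of all genes at an unadjusted p under 0.05, and DESeq2 called 4 (Mvd, Acat2, Lss and Fdps), beside 1.37% of all genes. All 5 macrophage markers had fitted values above 0 on the Vegan diet in liver, with a summed level of 237, 284 and 404 CPM against 138, 237 and 355. Of these, 4 had an unadjusted p under 0.05 and none was called by edgeR. Their part in the result was not tested.

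On the Vegetarian diet no member passed in liver by edgeR or DESeq2 (0% of all genes in edgeR). Of the 28, 9 had an unadjusted p under 0.05, against 4.96% of all genes. Fitted values were above 0 for 25 of the 28, with a median of 0.27, and for 51.95% of all genes. A/J had the largest strain median there, 0.65, and C57BL/6J the lowest, -0.18. On the Mediterranean diet edgeR and DESeq2 called no member (0.145% of all genes in edgeR), 4 had an unadjusted p under 0.05 against 16.3% of all genes, and the median was 0.13. The macrophage markers were at 204, 333 and 549 CPM on that diet, with 2 of 5 called higher by edgeR (smallest adjusted p = 0.0364), and their part in the result was not tested. The 3 diet contrasts share the 8 American-fed livers.

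Subcutaneous fat had the opposite tendency on the plant-based diets. On the Vegan diet 21 of the 28 fitted differences were below 0, with a median of -0.18, on the Vegetarian diet 25, with a median of -0.20, and on the Mediterranean diet 16, with a median of -0.04. The last was -0.29 without DBA/2J mouse 38 and above 0 without any one of C57BL/6J mouse 2, DBA/2J mouse 39 or SJL mouse 53. Of all genes, 52.07% were above 0 on the Vegan, 49.71% on the Vegetarian and 48.33% on the Mediterranean diet. edgeR called no member and 0% of all genes in each of the 3. Unadjusted p values were under 0.05 for 8 members on the Vegan (3.88% of all genes), 1 on the Vegetarian (2.96%) and 3 on the Mediterranean diet (3.88%). DESeq2 called 1 member on the Vegan diet (0.353% of all genes) and 0 on each of the others.

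That member was Insig1, which retains SREBP in the endoplasmic reticulum and is itself a sensitive SREBP target. Its level was 65.7, 151 and 249 CPM in Vegan-fed and 129, 240 and 400 in American-fed fat (-0.87 ± 0.19, DESeq2 adjusted p = 0.00305, edgeR unadjusted p = 0.000101). Of the 8 Vegan-fed libraries, 7 lay below the American-fed median and 3 below the lowest American-fed library. Pmvk, the second mevalonate kinase, was at 25.2, 48.8 and 58.8 against 48.9, 65.8 and 90.9 (-0.55 ± 0.15, unadjusted p = 0.000879), with all 8 below the American-fed median.

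Acat2, the cytosolic thiolase, was at 31.9, 60.1 and 111 CPM against 55.6, 72.9 and 146 (-0.39 ± 0.13, unadjusted p = 0.00429). Its counts held fractions in 83.75% of libraries, from reads shared with other loci. Its level is therefore less certain than that of Sqle, Msmo1 or Aacs, which had none. Fractions were also common for other members, among them Ggps1 (56.88%), Lss (53.75%), Fdft1 and Scap (53.12% each), Cyp51 (51.25%) and Hmgcs1 (49.38%). Lss was at 20, 35.3 and 46.9 against 30.2, 42.2 and 67.6 (-0.45 ± 0.14), and Aacs at 94, 128 and 297 against 138, 208 and 323 (-0.47 ± 0.15). Nsdhl was at 20.5, 44.5 and 74.7 against 29.6, 52.2 and 102 (-0.51 ± 0.18). All 4 genes overlapped between the diets, with 6 or 7 of 8 Vegan-fed libraries below the American-fed median.

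The size of this difference changed with the libraries included. The Vegan median was -0.50 in C57BL/6J, -0.40 in DBA/2J and -0.32 in A/J, but 0.30 in SJL, where 1 of the 2 Vegan libraries (mouse 64) held Alb at 26.5% of the liver mean. Without that library the median over all strains was -0.36, and without American-fed C57BL/6J mouse 2 it was -0.08. Without the 5 doubted subcutaneous libraries the median was -0.35, with 24 of 28 below 0 and 21 at an unadjusted p under 0.05, and edgeR still called none.

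**Figure D4:**
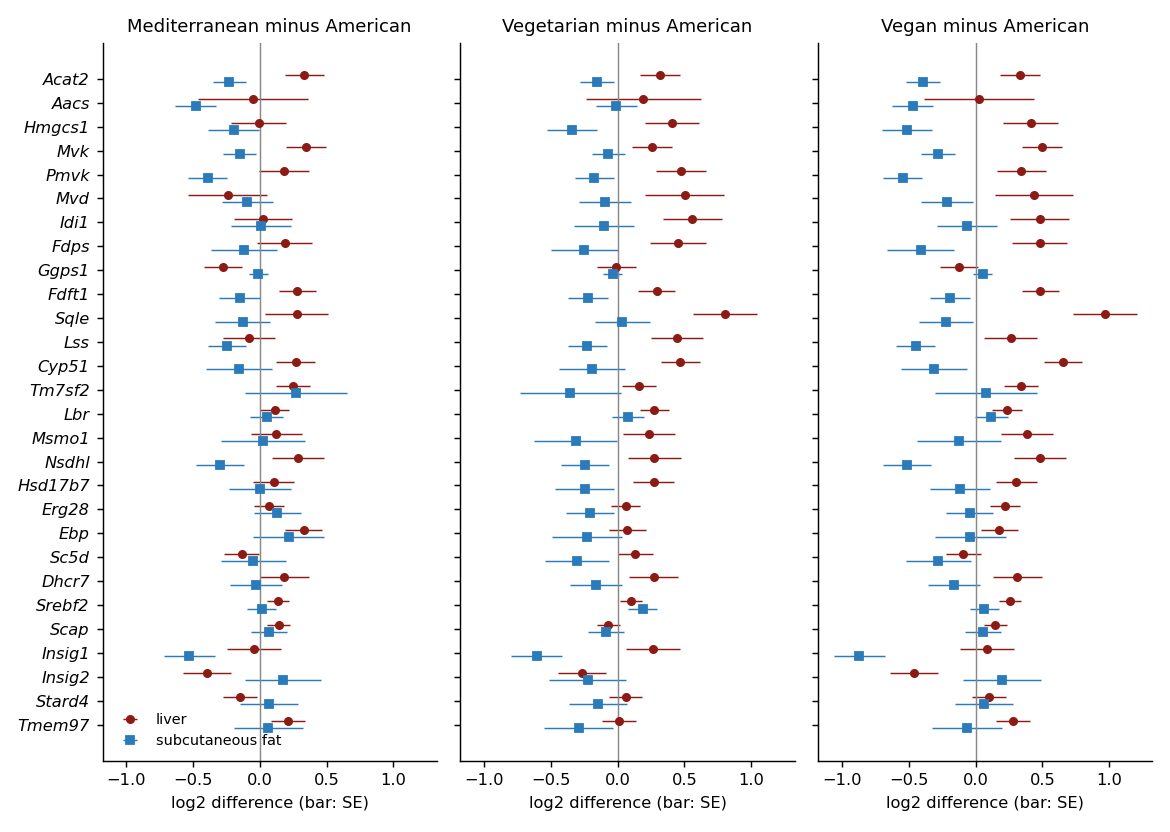
Log2 difference from the American diet (horizontal axes, bars are SE) for the 28 genes (vertical axis) in liver and subcutaneous fat, with 1 panel per diet. On the Vegan diet 25 liver points lie above 0 and 21 subcutaneous points below it, and no point passed the edgeR threshold.

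Taking both tissues in a single model, the Vegan difference was larger in liver than in subcutaneous fat for 26 of 28 members. It was so for 50.88% of all genes, and the median was 0.51 over the members and 0.01 over all genes. edgeR called no member and 0% of all genes. Here 11 members had an unadjusted p under 0.05, against 7.71% of all genes, and limma on TPM called none. The smallest p values were those of Mvk (0.78 ± 0.20, adjusted p = 0.264), Sqle (1.19 ± 0.32, adjusted p = 0.278), Acat2 (0.74 ± 0.20), Pmvk (0.89 ± 0.24), Nsdhl (1.00 ± 0.27) and Insig1 (0.96 ± 0.28, adjusted p = 0.397). Without the doubted libraries the median was 0.71 and Cyp51 was called (1.19 ± 0.22, adjusted p = 0.0447), as were 0.00802% of all genes.

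The Vegetarian diet gave a median of 0.50 in the same model, with 26 members and 57.4% of all genes above 0. The median over all genes was 0.04, and 10 members had an unadjusted p under 0.05, against 3.57% of all genes. The Mediterranean diet gave 0.15, with 21 above 0 (49.07% of all genes) and 5 at that level (8.65% of all genes). Neither had a member called by edgeR (0% of all genes in each) or by limma on TPM. In the separate fits of the 2 tissues, 20 members were above 0 in liver and below it in fat on the Vegan diet. There were 22 on the Vegetarian and 9 on the Mediterranean diet. No share of all genes with both signs is given beside these counts.

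The C57BL/6J difference was also compared between the 2 tissues. It was more negative in liver than in subcutaneous fat for 4 called members, beside 4.72% of all genes. These were Mvk (-0.73 ± 0.16, adjusted p = 0.00121), Mvd (-1.15 ± 0.29, adjusted p = 0.00398), Pmvk (-0.60 ± 0.20, adjusted p = 0.0342) and Srebf2 (-0.31 ± 0.11, adjusted p = 0.0475). Without the doubted libraries 12 members were called (11.9% of all genes in either direction), adding Erg28, Fdft1, Sqle, Tm7sf2, Hsd17b7, Msmo1, Scap and Dhcr7.

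DBA/2J stood apart in subcutaneous fat. edgeR called 22 members higher than in the other 3 strains and 2 lower (Lbr, -0.55, and Aacs, -0.45), while 25.1% of all genes were called higher and 20.5% lower. The median was 0.78, beside 0.00 over all genes. The higher calls covered 9 of 10 lanosterol genes, 5 of 6 mevalonate genes, all 3 squalene genes, both genes of sterol handling, 2 of 4 regulators (Insig1 and Insig2) and 1 of 3 supply genes.

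Hmgcs1 was at 458, 543 and 658 CPM in the 8 DBA/2J libraries and 116, 254 and 530 in the 24 others (1.13 ± 0.14, adjusted p = 5.96e-07). Mvk was at 33, 37.9 and 49.5 against 15, 21.2 and 42.5 (0.77 ± 0.10, adjusted p = 5e-07). Nsdhl, which removes the carboxylated methyl groups of sterol intermediates, was at 49.5, 78.7 and 115 against 20.5, 41.9 and 72.1 (1.00 ± 0.14, adjusted p = 2.62e-06). All 8 DBA/2J libraries exceeded the median of the other strains for each gene, and 4, 1 and 6 of them exceeded every other library.

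Hsd17b7 was at 16.6, 19.9 and 57.2 CPM against 7.34, 9.99 and 30.1 (1.23 ± 0.17, adjusted p = 2.51e-06). Stard4 was at 34.7, 47 and 116 against 16.9, 23.4 and 53.7 (1.17 ± 0.17, adjusted p = 3.23e-06), and Sqle at 23, 34.2 and 74 against 10.7, 17.8 and 33 (1.01 ± 0.16, adjusted p = 1.42e-05). The highest DBA/2J library for Hsd17b7 and Sqle was that of mouse 38 on the Mediterranean diet, in which Alb reached 54.4% of its liver mean.

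Liver markers moved with this group: their summed level was 30.4, 2469 and 77820 CPM in DBA/2J against 21.7, 143 and 33420 in the others, 3 of 4 mesothelial and all 3 skin markers were called higher, and 2 of 5 brown fat markers were called lower. With the doubted libraries left out, 17 members were called higher and the same 2 lower (39.2% of all genes in either direction), with a median of 0.42 and the loss of Ebp, Erg28, Mvd, Pmvk and Tm7sf2. Hsd17b7 then ran from 16.6 to 21.1 CPM in 5 DBA/2J libraries and from 7.34 to 15.2 in 22 others, with no overlap (0.83 ± 0.10, adjusted p = 5.1e-07). Hmgcs1 was as far apart without those libraries as with them (1.23 ± 0.18, adjusted p = 1.12e-05). With log2 Alb as a covariate 19 were called higher and 2 lower, and without mouse 38 alone the median was 0.56.

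Of 16 genes of sterol efflux and transport in the same fat, 5 were called higher in DBA/2J (Scarb1, Abcg5, Abcg8, Lcat and Soat2). Called lower were 3 (Abcg1, Mylip and Soat1). Of all genes, 25.1% were called higher and 20.5% lower in that contrast. The DBA/2J libraries of mice 34, 38 and 45 held Alb at 29.1%, 54.4% and 12.5% of its liver mean. No values without them are given for this list, and the part of liver transcripts in these calls was not tested. Scarb1 differed by 0.44 ± 0.10 (adjusted p = 0.00109). Abcg1, a cholesterol exporter, was at 42.6, 47.4 and 55.6 CPM against 55.8, 90 and 133 (-0.97 ± 0.10, adjusted p = 8.7e-09), and no DBA/2J library reached the lowest of the others. Mylip, a ubiquitin ligase induced by sterols, differed by -0.65 ± 0.07 (adjusted p = 5.09e-08), and Soat1, which esterifies cholesterol, by -0.57 ± 0.10 (adjusted p = 2.88e-05). In visceral fat DBA/2J had 6 members called higher and 2 lower (15.9% and 13.3% of all genes), with Hmgcs1 at 402, 601 and 719 CPM against 153, 282 and 451 (0.97 ± 0.11, adjusted p = 1.66e-07) and 7 of 8 libraries above all others. Without the 10 doubted visceral libraries 14 were called higher and 3 lower (29.4% of all genes in either direction). Cell type markers moved with DBA/2J in visceral fat: 3 of 5 adipocyte markers were called lower (median -0.83, summed level 5744, 6441 and 7692 CPM against 5423, 10410 and 19320), as was 1 of 3 endothelial markers. Called higher were 2 of 5 macrophage, 2 of 4 stellate and fibroblast and 2 of 3 skin markers. Their part in the result was not tested.

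A/J was low in fat. In subcutaneous fat 11 members were called lower and none higher (8.17% of all genes lower), with a median of -0.45. Cyp51 was at 11.6, 18.1 and 25.7 CPM against 21, 32.9 and 110 (-1.04 ± 0.21, adjusted p = 0.000781), and 6 of 8 A/J libraries lay below every other library. Among libraries not doubted, the highest Cyp51 value was 48.2 CPM in DBA/2J and 46.9 CPM in the other strains. Insig1 was at 65.7, 115 and 184 against 97, 203 and 400 (-0.85 ± 0.16, adjusted p = 0.000317).

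In A/J brown fat 10 members were called lower and 1 higher (18.5% and 17.3% of all genes), led in size by Sc5d (-0.98) and Mvd (-0.72). In A/J visceral fat 9 were called lower (5.29%), among them Cyp51 (-1.08), Dhcr7, the last reductase (-0.92), and Insig1 (-0.78). Without the doubted visceral libraries 16 were called lower and 1 higher (14.1%). Cyp51, Insig1, Mvd, Acat2, Lss and Nsdhl were called lower in all 3 A/J fat depots, whereas in A/J liver no member was called lower.

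In SJL fat the supply genes Acat2 and Aacs were high. Acat2 was at 92.5, 110 and 146 CPM in SJL subcutaneous fat and 31.9, 60.4 and 90.8 in the other strains, without overlap (0.89 ± 0.10, adjusted p = 4.62e-08). It also rose in SJL brown fat (0.60 ± 0.09) and visceral fat (0.74 ± 0.11), with the caution on shared reads given above. Brown fat markers moved with SJL in subcutaneous fat, where all 5 were called higher (median log2 difference 2.75) and their summed level was 1323, 2627 and 3778 CPM against 32.7, 79.8 and 2168. In visceral fat none of the 5 was called, at 45.5, 72.1 and 1721 CPM against 17.3, 76.5 and 4416. Their part in the Acat2 and Aacs differences was not tested. Aacs was called higher in SJL in the same 3 depots and in liver, at 357, 508 and 774 CPM against 154, 267 and 500 in brown fat (0.79 ± 0.14, adjusted p = 7.77e-05).

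The remaining SJL and DBA/2J calls in fat went both ways. SJL had 3 higher and 2 lower in subcutaneous fat (21.9% of all genes in each direction), 8 higher and 3 lower in brown fat (12.3% and 11.5%) and 2 higher and 2 lower in visceral fat (8.7% and 8.89%). DBA/2J brown fat had 5 higher and 4 lower (19.9% and 14.8%). C57BL/6J had Ggps1 called higher in all 3 depots, and in brown fat its 8 libraries, at 26.1, 27.6 and 30.9 CPM, lay above all others, at 15, 20.1 and 25.4 (0.47 ± 0.06, adjusted p = 1.12e-07). Sc5d was higher in C57BL/6J brown fat (1.05 ± 0.17) and visceral fat (1.00 ± 0.23), beside its value of 0.13 in liver. The C57BL/6J visceral libraries of mice 7, 8, 13 and 16 were doubted, with Alb at 14.4%, 10.05%, 62.2% and 55.7% of its liver mean. No visceral Sc5d value without them is given here, and the part of liver transcripts in it was not tested.

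In SJL muscle 15 members were called lower and none higher (16.3% of all genes lower, 37.2% in either direction), with a median of -0.70. Fdft1 was at 38.1, 53.7 and 68.1 CPM against 66.1, 83.5 and 107 in the other strains (-0.62 ± 0.09, adjusted p = 2.2e-06), with 7 of 8 SJL libraries below every other library. Hsd17b7 was at 3.06, 7.23 and 8.26 against 6.31, 12.3 and 35 (-1.03 ± 0.26, adjusted p = 0.00267), and Sc5d at 22.3, 26.8 and 28.3 against 23.6, 47.3 and 194 (-1.35 ± 0.36, adjusted p = 0.00396). Scap, Fdps and Stard4 differed by -0.51 ± 0.14, -0.81 ± 0.24 and -1.39 ± 0.41.

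Liver markers were low in the same SJL libraries, at 298, 909 and 2044 CPM summed against 13.1, 5295 and 46610, and all 8 doubted muscle libraries were of the other strains. Without those 8 the median was -0.22 and 10 members were called, 9 of them among the 15, beside 37.4% of all genes. Fdft1 was as far apart as before (-0.64 ± 0.09) while Stard4 came to -0.55 ± 0.20. The macrophage markers were higher in SJL muscle, at 171, 231 and 275 CPM against 86.2, 113 and 217, with 4 of 5 called higher. Npc1 had no overlap there, at 20.3, 27.9 and 32.7 CPM against 41, 79.6 and 105 (-1.50 ± 0.12, adjusted p = 5.96e-11).

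In the other strains 1 member was called higher in C57BL/6J muscle (Fdft1, 0.32, beside 13.1% of all genes) and 1 in DBA/2J muscle (Hsd17b7, 0.73, beside 6.7%). Without the doubted libraries these counts were 3 higher and 8 lower in C57BL/6J and 12 higher in DBA/2J (20.1% of all genes). In A/J muscle edgeR called none (11.9% of all genes), with 0 members at an unadjusted p under 0.05 (23.2% of all genes), and DESeq2 called 0.

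Diet effects in the remaining tissues were not called by edgeR. On the Vegan diet brown fat had 26 of 28 members below 0, with a median of -0.30. Over all genes 44.1% were above 0, with a median of -0.03. An unadjusted p under 0.05 was found for 11 members, against 15.4% of all genes (0.0148% of all genes called). Sc5d was at 19.6, 52.5 and 94.8 CPM against 44.7, 78.2 and 177 on the American diet (-0.88 ± 0.22, adjusted p = 0.0955), and Mvd at 3.41, 6.75 and 12 against 7.88, 10.6 and 14.4 (-0.61 ± 0.17, adjusted p = 0.103). DESeq2 called these 2 genes and 1.31% of all genes. Without the 4 doubted libraries edgeR called Mvd and Pmvk and 3.87% of all genes, and Sc5d came to -0.53 ± 0.19 (adjusted p = 0.102).

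The Mediterranean diet gave a median of -0.28 in brown fat, with 9 members at an unadjusted p under 0.05 (14.2% of all genes, 0.104% called), and the Vegetarian diet -0.03, with 0 members at that level (12.1% of all genes, 0.267% called). DESeq2 called 0 members in each. In visceral fat Insig1 was at 72.6, 156 and 316 CPM on the Vegan and 188, 312 and 522 on the American diet (-0.94 ± 0.23, edgeR adjusted p = 0.42, DESeq2 adjusted p = 0.0435). It was the only member that DESeq2 called there on any of the 3 diets (0.141% of all genes on the Vegan diet). In edgeR 4 members had an unadjusted p under 0.05 on the Vegan (8.1% of all genes), 0 on the Vegetarian (3.41%) and 1 on the Mediterranean diet (5.11%), and 0% of all genes were called in each. The Vegan median in visceral fat was -0.09 over all libraries and -0.42 without the doubted ones. Insig1 came to -1.43 ± 0.27 without them (edgeR adjusted p = 0.359). Leaving those out removed both Vegan-fed C57BL/6J libraries (mice 13 and 16) and both American-fed SJL libraries (mice 49 and 50). Neither strain then held libraries of both diets. Over all libraries the Vegan median by strain was 0.78 in C57BL/6J, -0.40 in A/J, -0.32 in DBA/2J and -0.42 in SJL.

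In muscle the Vegan median was 0.37 with 26 members above 0, but -0.02 with 13 above 0 once the 8 doubted libraries were left out. Unadjusted p values were under 0.05 for 1 member on the Vegan (2.86% of all genes), 0 on the Vegetarian (1.54%) and 1 on the Mediterranean diet (4.88%), edgeR called 0% of all genes in each, and DESeq2 called no member.

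Lists outside the pathway were also read on the Vegan diet. In liver all 11 genes of bile acid synthesis had fitted values below 0, with a median of -0.16, 3 at an unadjusted p under 0.05 and none called by edgeR. The smallest p there was that of Akr1d1, a reductase of bile acid precursors (-0.49, adjusted p = 0.115). Of 17 genes of fatty acid synthesis, 14 were below 0 in liver (median -0.28) and 14 in subcutaneous fat (median -0.32), with 2 and 5 at an unadjusted p under 0.05 and none called by edgeR. Lists of 12 clock genes and 9 genes of fasting and feeding had no gene called by edgeR in liver and 0 at an unadjusted p under 0.05 in each.

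A count per library describes how many members stood high for their tissue. No such count over all genes is set beside it. For each library, members above the median of all 32 libraries of the tissue were counted. The 8 C57BL/6J livers had 3 to 10 such members (median 5), whereas the other strains had 5 to 27 in A/J, 4 to 25 in DBA/2J and 4 to 26 in SJL. By diet the liver medians were 6 on the American, 12 on the Mediterranean, 19.5 on the Vegetarian and 20 on the Vegan diet, with ranges that overlapped from 5 to 21.

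In subcutaneous fat DBA/2J had 14 to 25 such members and A/J 2 to 12, and these 2 strains did not overlap. The doubted libraries among these were DBA/2J mice 34, 38 and 45, at 24, 25 and 23, and A/J mouse 24, at 2. In muscle all 8 SJL libraries had 3 to 8. Of 31 mice with both tissues, 7 had over 14 members above the median in liver and in subcutaneous fat, 8 in liver alone, 5 in subcutaneous fat alone and 11 in neither. By strain, 5 of the 7 mice high in both were DBA/2J, and none of the 8 C57BL/6J mice was high in liver. Without the mice whose subcutaneous library was doubted, 4 were high in both, 3 of them DBA/2J.

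**Figure D5:**
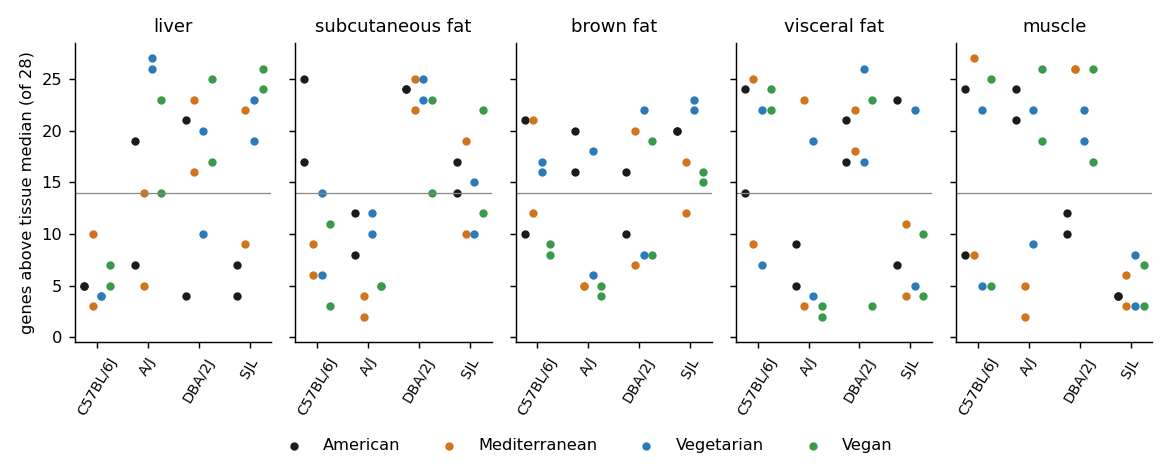
Number of the 28 genes above the tissue median (vertical axis, 0 to 28) in each library, by strain (horizontal axis) and coloured by diet, with 1 panel per tissue and a line at 14. C57BL/6J livers sit at 3 to 10, DBA/2J subcutaneous libraries at 14 to 25 and SJL muscle libraries at 3 to 8.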

How the data were processed

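Per the labels' protocols, RNA from 5 tissues was sequenced and reads were trimmed with Trim Galore, aligned to GRCm39 with HISAT2, with a relaxed mismatch penalty for strains other than C57BL/6J, and counted per gene with HTSeq. Tool versions and strandedness: not given in the sources used here. As deposited by the authors, the estimated counts share reads with several alignments as fractions (74.37% of non-zero values were whole within 1e-06). Rounding to whole numbers was done before testing. The authors also deposited TPM values, used for levels between genes and, as log2(TPM + 1) where the mean reached 1, in limma 3.58.1.

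Counts were tested per tissue with edgeR 4.0.16 (R 4.3.3; quasi-likelihood F-test, TMM, filterByExpr with a count of 10 and a total of 15, additive strain and diet terms), with Benjamini-Hochberg adjustment over all genes and a threshold of 0.05. A strain was set against the mean of the other 3, a diet against American. Liver and subcutaneous fat were also fitted together. DESeq2 1.42.0, other scalings and filters, a model of all 16 groups and leave-one-out fits were alternatives. The fitting code was tested on simulated data. The members and lists were chosen with earlier results of these data known. Up to 6 members with the smallest p per main comparison have values by library, as have further genes chosen after their values were seen, among them all those in DBA/2J subcutaneous fat and in SJL muscle.

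Most tissues came from the same mice, which pairs liver with subcutaneous fat in 31 animals. The correlation of deviations within a pair had a median of 0.0152 and exceeded 0.1 in 3 pairs.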

Additional observations from a re-analysis of the deposited data

Results flagged for a closer look

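Within groups of 8 libraries, 7 values stood far from the rest of their group, among 42 groups checked, and chance sets about 1 in 20 groups apart in this way. In C57BL/6J liver, Erg28 was at 62.06 CPM in Mediterranean-fed mouse 8, against 41.64 to 49.09 in the other 7. In DBA/2J subcutaneous fat, Mvk was at 49.52 CPM in Vegetarian-fed mouse 42, against 32.97 to 40.44. Mediterranean-fed mouse 38 had Hsd17b7 at 57.25 CPM, against 16.61 to 34.32, and Sqle at 74.03 CPM, against 23.03 to 36.85, in the library whose Alb level was 54.4% of the liver mean. In SJL muscle, Vegan-fed mouse 64 had Hsd17b7 at 3.063 CPM, against 6.683 to 8.256, and Stard4 at 4.251 CPM, against 6.341 to 7.958. The same library had Fdps at 17.42 CPM, against 9.779 to 12.48.

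The C57BL/6J difference was not the same in liver and subcutaneous fat for 4 members by the test of the difference itself in edgeR. It was more negative in liver by 1.15 on the log2 scale for Mvd (-1.146, adjusted p = 0.003977), and likewise for Mvk (-0.7275, adjusted p = 0.001206), Pmvk (-0.5956, adjusted p = 0.03417) and Srebf2 (-0.305, adjusted p = 0.0475).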

How the results depend on the processing

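No named member's difference changed sign under an alternative that was run, but some medians over the 28 genes did. Without the doubted libraries the Vegan median in muscle went from 0.37 to -0.02 and the C57BL/6J median in muscle from 0.06 to -0.27. Without them the Vegetarian median went from 0.06 to -0.18 in visceral fat and from -0.03 to 0.01 in brown fat. The visceral fit without them held no American-fed SJL library. With limma on TPM the C57BL/6J muscle median was -0.26, the Vegetarian visceral median -0.03 and the SJL median in subcutaneous fat -0.08, against 0.02. With a library left out, the SJL median in subcutaneous fat ran from -0.09 to 0.09 and the Mediterranean median there from -0.29 to 0.01. The C57BL/6J count in liver stayed at 17 to 20 under RLE scaling, no filter, DESeq2, limma on TPM, all 16 groups and leaving out each library (17 to 19), against 18. Calls on the Vegan diet in liver were 2 with DESeq2, 2 with all 16 groups and 0 to 2 with a library left out, against 0. They were called without C57BL/6J mice 7, 12 or 16, A/J mouse 24 or SJL mouse 53. DESeq2 called 1 member on the Vegan diet in subcutaneous fat, 3 over the diets in the other 3 tissues and 4 for strain by diet, each against 0 in edgeR. Without the doubted libraries, diets in the other 3 tissues gave 2 and the liver against fat diet response 1, each against 0. DBA/2J liver, with 3 calls, gave 1 without a filter, 1 with limma, 5 with all 16 groups and 0 to 6 with a library left out. SJL liver, with 6, gave 3 without a filter, 10 with all 16 groups and 2 to 8 with a library left out. SJL muscle, with 15, gave 3 with limma on TPM. The C57BL/6J difference between liver and subcutaneous fat, with 4 calls, gave 2 without a filter and 12 without the doubted libraries. The causes of these shifts were not tested. For single named members, 994 checks kept direction and side of the threshold, 11 passed it only under the alternative and 3 no longer passed.

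With the mouse as a replicate block, the paired fits gave 0 calls for diet, 4 for C57BL/6J and 117 over the tissue contrasts, as without it. With 2 mice per strain and diet, differences within 1 strain have no test of their own.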
